A study of Mus musculus with 6 samples.

Results

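The genes described here make cholesterol, sense it and move it: the enzymes of cholesterol synthesis, the control circuit of the transcription factor SREBP2, the LXR receptors with their targets, and carriers of sterol inside the cell. They were chosen by name, 30 symbols in 5 groups by role, and read at the cluster of gene-specific probes (crosshyb type 1) with the highest mean over the 6 arrays. The symbol column held 28 of the 30, among 27365 genes tested in all. Msmo1 was found under its older symbol Sc4mol by its Entrez gene identifier and is given beside the 28. Nr1h3, the gene of LXR alpha, had no row under its symbol or identifier.

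The samples were primary adipocytes from inguinal fat, a subcutaneous white depot of the mouse, which the submitters describe as fully differentiated. RNA was measured on 6 Affymetrix MoGene 2.0 ST arrays. A group of 3 arrays came from cells given 50 µM kynurenic acid, a breakdown product of tryptophan, for 12 h. The other 3 came from cells given PBS as the control for the same 12 h. The titles call the replicates technical, and the labels name no strain, sex, age or separate cultures. The p-values therefore reflect how far the arrays of a group lie apart, which may be technical, and not the spread between animals or cultures.

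Cholesterol is built from acetyl-CoA through mevalonate, farnesyl diphosphate, squalene and lanosterol. When membranes of the endoplasmic reticulum hold little cholesterol, Scap carries SREBP2 to the Golgi, where it is cut, and the freed fragment turns on the genes of synthesis and uptake. When cholesterol is plentiful, Insig proteins hold Scap back, while oxysterols activate the LXR receptors, which turn on export by Abca1 and Abcg1. Adipocytes make little cholesterol compared with liver but store much of it, largely unesterified, around and in the lipid droplet.

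SREBP2 and its relative SREBP1 bind the sterol regulatory element and can also bind E-boxes. The RefSeq promoters (GRCm38.p6, 250 bases before to 50 after each start) were therefore searched for both motifs. The table held 24 of the 30 genes in 31 promoters. The core of the sterol element, TCACNCCAC on either strand, was found in 1 of these promoters (3.23%), that of Hmgcs1, and in 1.24% of all 32851 promoters. It is shown because Hmgcs1 is a classical SREBP2 target. The match lies at positions -137 to -129, with the start as 0, and is in capitals in the 250 bases before the start, at chr13:119690101-119690350 on the plus strand.
Hmgcs1: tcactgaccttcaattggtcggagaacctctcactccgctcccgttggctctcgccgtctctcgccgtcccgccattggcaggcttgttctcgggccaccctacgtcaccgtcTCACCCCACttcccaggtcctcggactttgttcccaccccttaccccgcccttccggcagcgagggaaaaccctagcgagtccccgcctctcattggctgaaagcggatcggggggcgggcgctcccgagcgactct

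The E-box CACGTG, which reads the same on both strands, was found in 7 promoters (22.6%) of 6 genes, against 7.15% of all promoters. Scap has 2 promoters that share 1 site, which lies before the start of one and after the start of the other. The LXR element DR4 was found in 0 of the 31 promoters on either strand and in 0.0152% of all promoters. The E-box sites are shown because they occur in genes of 3 roles, synthesis, SREBP2 control and LXR targets, and they were picked after the matches were seen. The sites are printed with 10 bases on either side, in transcript direction, and the E-box is in capitals. A match of letters is a description and not a binding site.
Hsd17b7 (chr1:169969333-169969358, minus strand): acccttgtgtCACGTGgctccgcccc
Sc5d (chr9:42264383-42264408, minus strand): acgcggcgacCACGTGaccgccgcga
Dhcr7 (chr7:143823225-143823250, plus strand): ctgtgatgaaCACGTGgcaaaaagca
Insig1 (chr5:28071301-28071326, plus strand): tgggtgaggtCACGTGgctccggtgg
Scap (chr9:110333306-110333331, plus strand): ccgccgggagCACGTGtggagggcgg
Abca1 (chr4:53160027-53160052, minus strand): gccatgtctcCACGTGctttctgctg

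**Figure D1:**
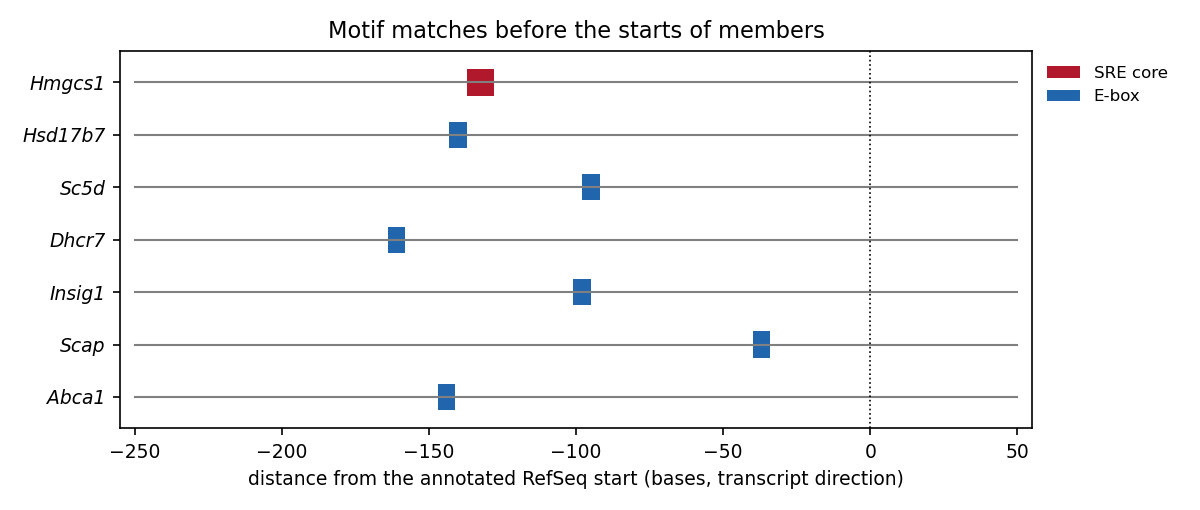
Motif matches (coloured boxes) in the RefSeq promoter window of 7 genes, with distance from the annotated start in bases on the x axis; the dotted line is the start. The sterol element of Hmgcs1 lies at -137 to -129, and each E-box lies before the start drawn; for Scap the start drawn is the one that the site precedes.

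None of the 28 genes passed the test after kynurenic acid, and neither did any other gene (0% of 27365; limma, Benjamini-Hochberg adjusted p under 0.05). Log2 changes, kynurenic acid minus PBS, ran from -0.25 for Idi1 to 0.13 for Scap, so none of the 28 differed by more than 1.19-fold. The changes leaned downward among the synthesis enzymes and were of both signs in the other groups. Of the 28, 20 were below 0 and 8 above, with a median of -0.067. Over all genes the median was 0.0067 and 47.1% were below 0. The 28 genes all read above the background probe sets in all arrays, and among 10951 genes at or above the 60th percentile of mean level, called the brighter genes below, 61.8% were below 0 with a median of -0.04.

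Without adjustment, the limma p was below 0.05 for 4 genes on the lower side and for 0 on the higher side. Of all genes 5.0% were lower and 4.69% higher by that rule, and of the brighter genes 8.66% and 2.57%. The 4 were Idi1, Nsdhl, Mylip and Stard4, and their adjusted p-values lay between 0.475 and 0.514. The count was 0 without kynurenic acid replicate 3, 2 without kynurenic acid replicate 1, 1 without PBS replicate 2, 1 without PBS replicate 3 and 2 after cyclic loess, and it was 6 with an intensity trend in the variance model. Of all genes, 3.39%, 3.66%, 3.31%, 4.9%, 4.66% and 6.07% were lower in these settings, in that order. Leaving out 1 array moved the change by over 1.5 times or turned its sign in 21 of the 28 genes. The share of all genes by this rule was not computed, and changes near 0 meet it more easily. The other 7 were Idi1, Nsdhl, Hsd17b7, Cyp51, Abca1, Mylip and Stard4. Of these, Cyp51 had a change of -0.033, which was 0.0014 after cyclic loess. In the authors' deposited table, 6 of the 28 had a p below 0.05 from the authors' own test, against 7.83% of all genes, with q-values of 0.522 to 0.526. These were the same 4 with Hsd17b7 and Abca1.

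Groups did not overlap in 9 genes that were lower in every kynurenic acid array and in 1 that was higher. Among all genes these shares were 7.58% and 7.14%, and among the brighter genes 13.5% and 5.32%. The 9 were Acat2, Idi1, Nsdhl, Hsd17b7, Sc5d, Insig1, Mylip, Stard4 and Npc2, and the 1 was Abca1. An exact two-sided permutation test of 3 arrays against 3 cannot give a p below 0.10.

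**Figure D2:**
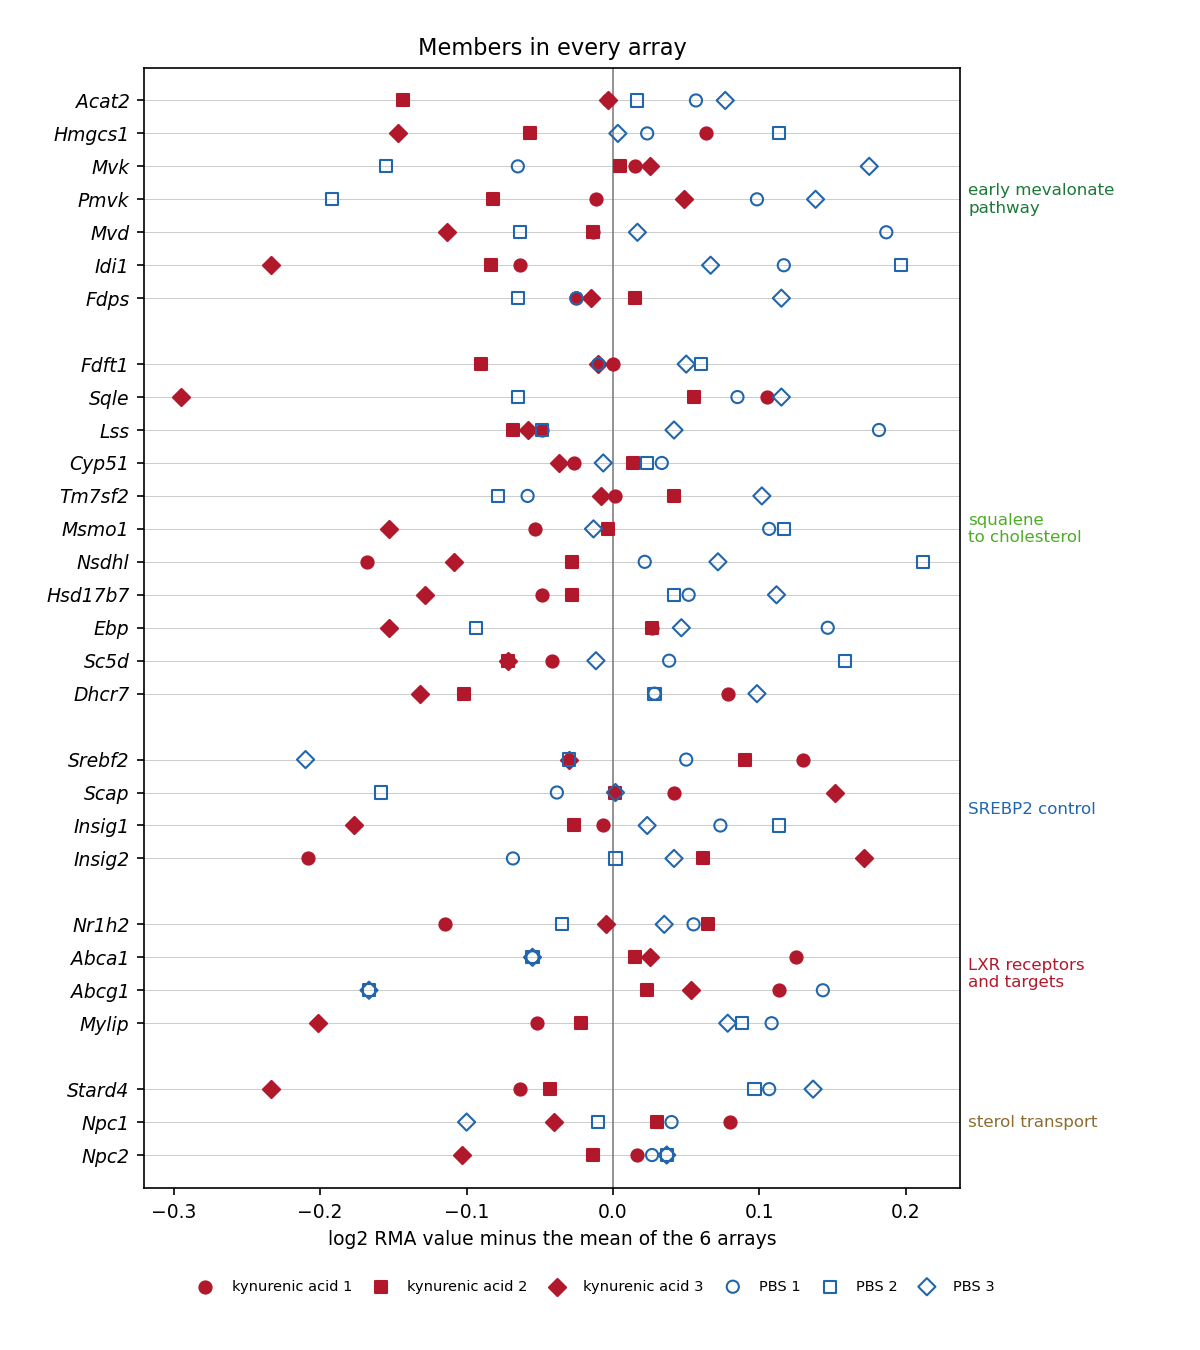
Each gene's log2 RMA value in each array minus its mean over the 6 arrays (x axis, log2), with filled red symbols for the 3 kynurenic acid arrays, open blue symbols for the 3 PBS arrays and a shape for each replicate number. Kynurenic acid replicate 3 (filled diamonds) holds the lowest value of 12 of the 28 genes, and Abca1 is the 1 gene with every kynurenic acid array above every PBS array.

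Kynurenic acid replicate 3 held the lowest value of more of these genes than any other array. It held the single lowest value in 12 of 28 genes, against 18.7% of all genes and 27.9% of the brighter genes. The mean of the 28 genes, as a deviation from their mean over the 6 arrays, was -0.0035, -0.015 and -0.065 in kynurenic acid replicates 1 to 3, against 0.048, -0.0010 and 0.037 in PBS replicates 1 to 3. The brighter genes deviated by -0.031, 0.0099 and -0.042 in the kynurenic acid arrays, against 0.029, 0.026 and 0.0078 in the PBS arrays. Replicate 3 of kynurenic acid was thus lowest by both measures, and its part in the gene values was not tested beyond the values without it.

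The early mevalonate pathway turns acetyl-CoA into farnesyl diphosphate, and 6 of its 7 measured genes were below 0, with a median change of -0.093, which was -0.033 without PBS replicate 1. None passed the test and 1 was lower at an unadjusted p below 0.05. That gene, Idi1, encodes the isomerase that makes the second isoprene building block and lies on chromosome 13 at 8885606 to 8892396 (mm10). Idi1 measured 7.47, 7.45 and 7.30 log2 with kynurenic acid, against 7.65, 7.73 and 7.60 with PBS. Every kynurenic acid array was below every PBS array, and replicate 3 was the lowest. The change was -0.25 (SE 0.083, 95% interval -0.44 to -0.066, adjusted p = 0.475). It was -0.20 without kynurenic acid replicate 3 and -0.22 without PBS replicate 2, and without either of these the unadjusted p was no longer below 0.05.

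Acat2, the cytosolic thiolase that opens the pathway, read 7.97, 7.83 and 7.97 with kynurenic acid, against 8.03, 7.99 and 8.05 with PBS. Its groups did not overlap, narrowly, and its change was -0.10 (SE 0.078, adjusted p = 0.688), or -0.053 without kynurenic acid replicate 2. Hmgcs1, the HMG-CoA synthase with the sterol element printed above, averaged 10.01 ± 0.11 log2 with kynurenic acid, from 9.91 in replicate 3 to 10.12 in replicate 1, against 10.10 ± 0.059 with PBS, from 10.06 in replicate 3 to 10.17 in replicate 2 (SD, n = 3 each). Kynurenic acid replicate 1 lay among the PBS arrays, so the groups overlapped, and the change was -0.093 with a 95% interval from -0.28 to 0.097, or -0.043 without kynurenic acid replicate 3. The decarboxylase gene Mvd had -0.093 as well, but -0.023 without PBS replicate 1, and the kinase genes Mvk and Pmvk had 0.03 and -0.03. Farnesyl diphosphate synthase, Fdps, had -0.017, the smallest change of this group. Signs of Mvk, Pmvk and Fdps turned in some alternatives, and their 95% intervals reached 0.25, 0.20 and 0.16 upward.

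The enzymes from squalene to cholesterol had 9 of 10 genes below 0 and a median change of -0.097, with 0 past the test and 1 lower at an unadjusted p below 0.05. Nsdhl, which removes methyl carbons from the sterol ring, was that gene. It measured 10.31, 10.45 and 10.37 with kynurenic acid, against 10.50, 10.69 and 10.55 with PBS. The highest kynurenic acid array, replicate 2, lay just below the lowest PBS array, replicate 1. The change was -0.20 (SE 0.084, 95% interval -0.39 to -0.012, adjusted p = 0.506). The unadjusted p stayed below 0.05 in 12 of 17 alternatives, and not without kynurenic acid replicates 1 or 3, without PBS replicates 2 or 3, or after cyclic loess. Nsdhl lies on chromosome X at 72918521 to 72958528.

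Hsd17b7, the ketosteroid reductase of the same demethylation complex, read 7.78, 7.80 and 7.70 with kynurenic acid, against 7.88, 7.87 and 7.94 with PBS. Sc5d, a late desaturase, read 10.85, 10.82 and 10.82 with kynurenic acid, against 10.93, 11.05 and 10.88 with PBS. Neither overlapped, with changes of -0.14 and -0.12 and adjusted limma p-values of 0.576 and 0.621. Sc5d had -0.075 without PBS replicate 2. Msmo1, the methylsterol oxidase that acts with Nsdhl and Hsd17b7, read 7.56, 7.61 and 7.46 with kynurenic acid, against 7.72, 7.73 and 7.60 with PBS. Kynurenic acid replicate 2 lay just above PBS replicate 3, and the change was -0.14 (SE 0.081, adjusted p = 0.590). Counting Msmo1 gave 10 of 11 genes below 0.

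Sqle, the squalene epoxidase and a control point of the pathway, read 7.72, 7.67 and 7.32 with kynurenic acid, against 7.70, 7.55 and 7.73 with PBS. Its low mean rested on kynurenic acid replicate 3: the change was -0.09 with all arrays and 0.035 without that array. The other members had -0.067 for the squalene synthase Fdft1, -0.12 for the lanosterol synthase Lss (-0.055 without PBS replicate 1), -0.033 for the lanosterol demethylase Cyp51 and 0.023 for the sterol reductase Tm7sf2. Ebp, a sterol isomerase, had -0.067, which was -0.0067 without kynurenic acid replicate 3 and -0.01 without PBS replicate 1. Dhcr7, the last reductase of 1 branch, had -0.10, and -0.063 without kynurenic acid replicate 3. Fdft1 had -0.038 without kynurenic acid replicate 2. Adjusted p-values of Sqle and these 6 lay between 0.660 and 0.941. Over both groups of enzymes, 15 of 17 were below 0. The count was 12 after cyclic loess and 17 after centring the arrays on their medians, with medians of -0.050 and -0.13 beside -0.093. Centring moves all genes of an array alike, and the median of all genes went from 0.0067 to -0.030 with it. After cyclic loess the median of all genes was 0.0038. The share of all genes below 0 was not counted in these settings, so the 17 is not particular to the enzymes.

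**Figure D3:**
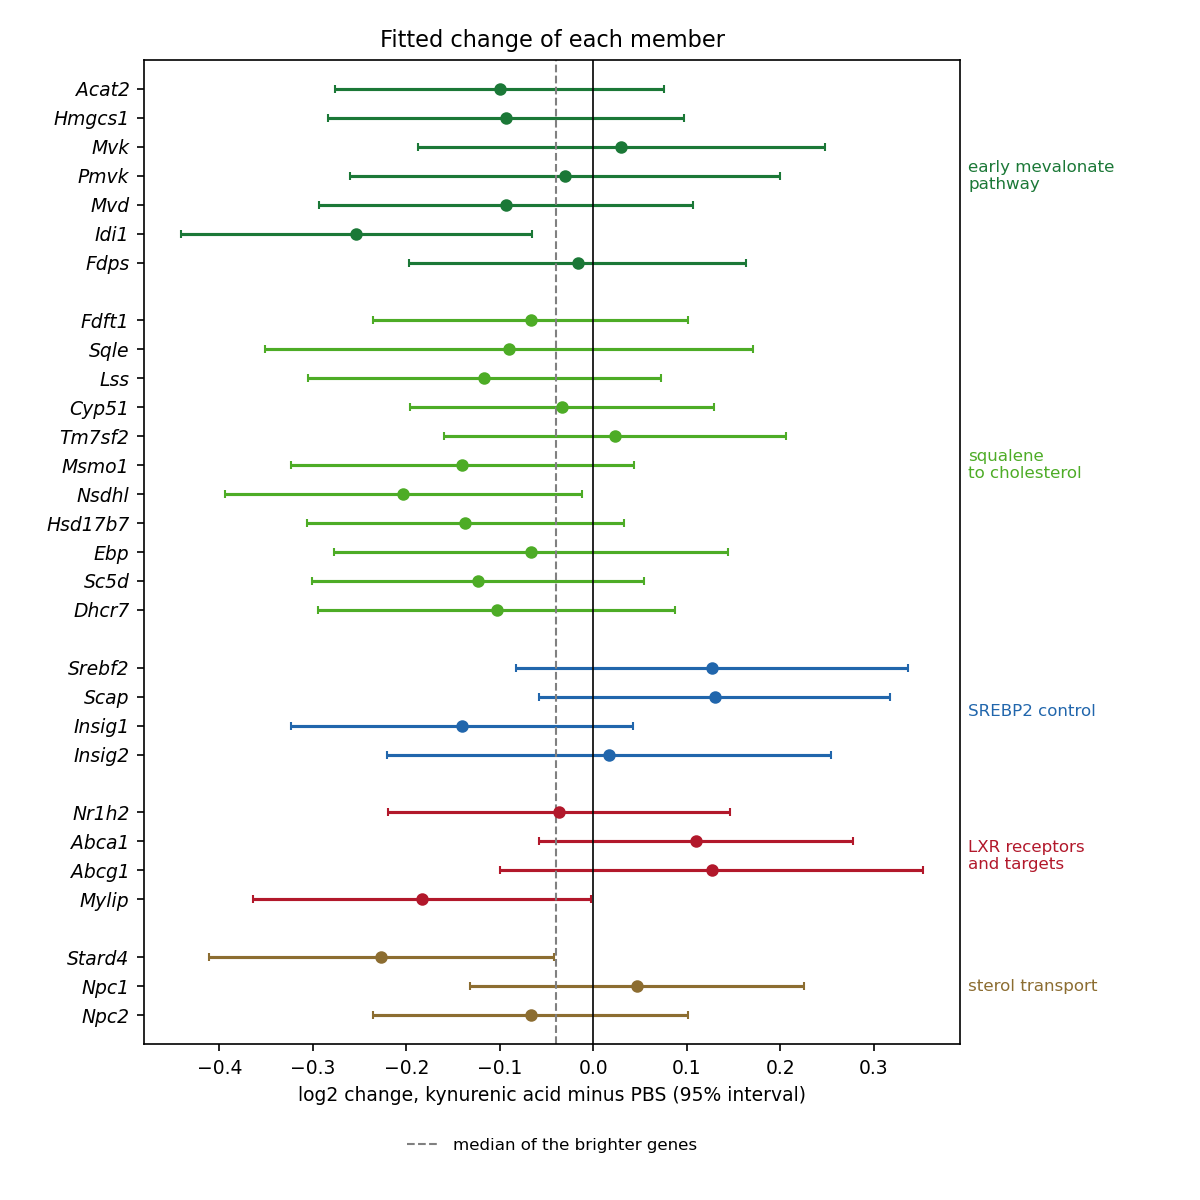
Fitted log2 change (points) of the 28 genes and Msmo1, kynurenic acid minus PBS, with its 95% interval (bars), coloured by role; the dashed line is the median of the brighter genes at -0.04. Intervals of Idi1, Nsdhl, Mylip and Stard4 lie below 0 without adjustment, and none passed after adjustment over all genes.

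The genes that control SREBP2 gave values on both sides of 0, with 1 of 4 below and a median change of 0.072, which was 0.011 without kynurenic acid replicate 3. None passed the test, and none stood at an unadjusted p below 0.05. Srebf2, the gene of SREBP2 itself, read 7.54, 7.50 and 7.38 with kynurenic acid, against 7.46, 7.38 and 7.20 with PBS. The ranges overlapped, and the change was 0.13 (SE 0.093, 95% interval -0.083 to 0.34, adjusted p = 0.667), or 0.053 without PBS replicate 3. Scap, the escort of SREBP2, also had 0.13 (SE 0.083, adjusted p = 0.622), with means of 6.80 ± 0.078 log2 with kynurenic acid and 6.67 ± 0.083 with PBS (SD, n = 3 each), and a change of 0.083 without PBS replicate 2.

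Insig1, an anchor of Scap whose own transcription SREBP2 drives, read 11.35, 11.33 and 11.18 with kynurenic acid, against 11.43, 11.47 and 11.38 with PBS. All kynurenic acid arrays were below all PBS arrays, by a narrow gap. The change was -0.14 (SE 0.081, 95% interval -0.32 to 0.043, adjusted p = 0.589), or -0.087 without kynurenic acid replicate 3. Its paralog Insig2, which does not depend on SREBP2 in the same way, read 6.76, 7.03 and 7.14 with kynurenic acid, against 6.90, 6.97 and 7.01 with PBS. Its kynurenic acid arrays spanned the PBS range on both sides, and the change of 0.017 turned sign in 4 of 17 alternatives.

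Among the LXR genes 2 of 4 were below 0 and the median change was 0.037, which was 0.0058 without PBS replicate 2 and 0 after centring the arrays on their medians. None passed the test, with 1 lower at an unadjusted p below 0.05. Nr1h2, which encodes LXR beta, read 8.04, 8.22 and 8.15 with kynurenic acid, against 8.21, 8.12 and 8.19 with PBS. These ranges overlapped, with a change of -0.037 at the gene's own cluster and -0.03 at a second cluster of less specific probes. A cluster annotated as Gm13783, on the minus strand of chromosome 2 at 91184061 to 91202834, covers the RefSeq span of Nr1h3. It read 6.48, 6.75 and 6.57 with kynurenic acid, against 6.71, 6.58 and 6.90 with PBS, and whether it reads Nr1h3 transcripts was not tested.

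Abca1, the transporter that loads cholesterol and phospholipid onto apolipoproteins, read 9.08, 8.97 and 8.98 with kynurenic acid, against 8.90, 8.90 and 8.90 with PBS. All kynurenic acid arrays were higher, and the PBS arrays were alike to 2 decimals. The change was 0.11 (SE 0.074, 95% interval -0.058 to 0.28, adjusted p = 0.642). In the authors' deposited table Abca1 is among the 6 genes with a p below 0.05. Abcg1, which exports sterol to HDL particles, read 7.64, 7.55 and 7.58 with kynurenic acid, against 7.67, 7.36 and 7.36 with PBS. PBS replicate 1 was the highest of all 6, the change was 0.13 (SE 0.10, adjusted p = 0.692), and it was 0.23 (adjusted p = 0.688) without that array and 0.075 without PBS replicate 2 or 3.

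Mylip, an LXR target whose product marks lipoprotein receptors for breakdown, read 6.95, 6.98 and 6.80 with kynurenic acid, against 7.11, 7.09 and 7.08 with PBS. All kynurenic acid arrays were lower, while in Abca1 all were higher. The Mylip change was -0.18 (SE 0.080, 95% interval -0.36 to -0.0027, adjusted p = 0.514). The unadjusted p stayed below 0.05 in 10 of 17 alternatives, but not after cyclic loess, with the replicate number as a block, or when any single array other than kynurenic acid replicate 2 was left out. Without kynurenic acid replicate 3 the change was -0.13. Mylip lies on chromosome 13 at 45389742 to 45412019 and Abca1 on chromosome 4 at 53030787 to 53159895.

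Of the sterol carriers, Stard4, a cytosolic protein that moves cholesterol between membranes and is a target of SREBP2, read 6.51, 6.53 and 6.34 with kynurenic acid, against 6.68, 6.67 and 6.71 with PBS. Every kynurenic acid array was below every PBS array, replicate 3 the lowest. The change was -0.23 (SE 0.082, 95% interval -0.41 to -0.042, adjusted p = 0.479). It was -0.17 without kynurenic acid replicate 3 and -0.21 without PBS replicate 3, and in both cases the unadjusted p was no longer below 0.05. Stard4 lies on chromosome 18 at 33199355 to 33213862. Npc2, which hands cholesterol to Npc1 in the lysosome, read 11.07, 11.04 and 10.95 with kynurenic acid, against 11.08, 11.09 and 11.09 with PBS. The groups did not overlap, but only just, with a change of -0.067 (adjusted p = 0.787), or -0.032 without kynurenic acid replicate 3. Npc1, the membrane protein that exports it, had 0.047 (adjusted p = 0.867), or 0.0083 without PBS replicate 3.

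**Figure D4:**
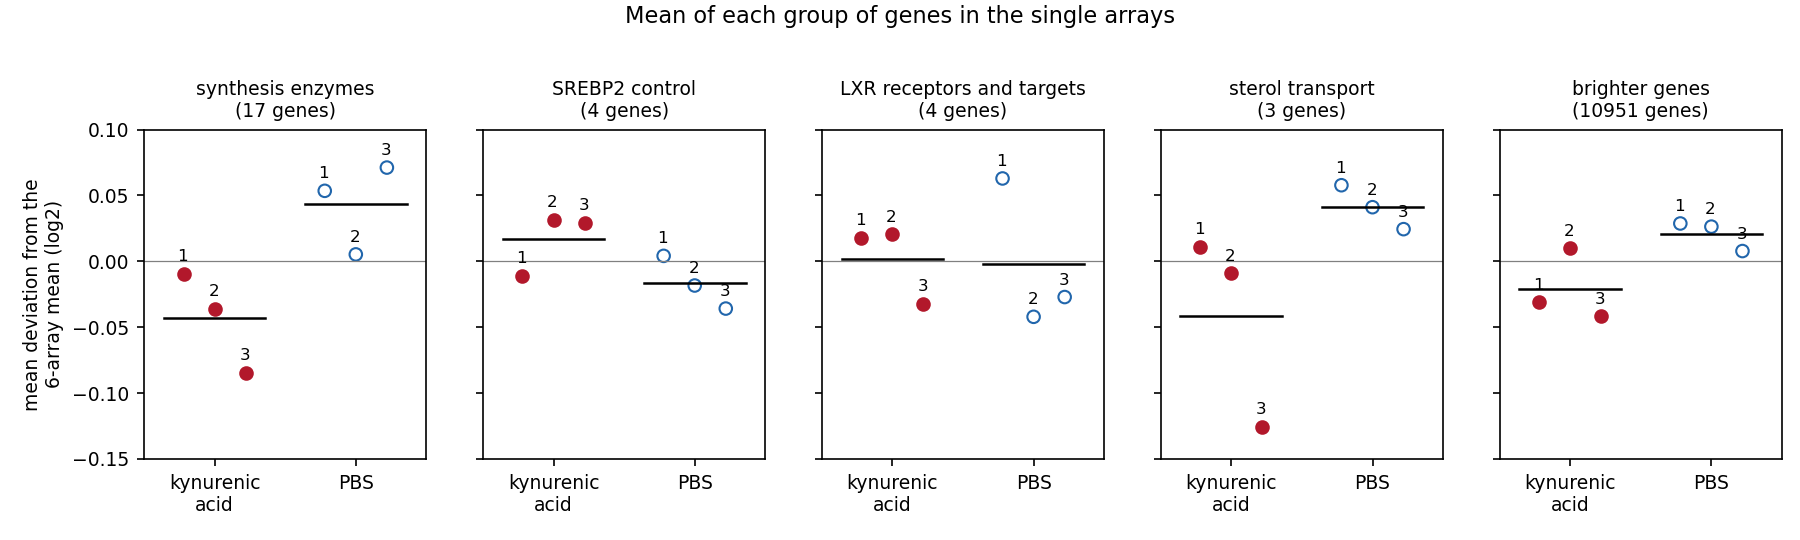
Mean deviation of each role group from its 6-array mean (y axis, log2), 1 point for each array with its replicate number, filled for kynurenic acid and open for PBS, with black lines at the group means. The synthesis enzymes lie between -0.085 and -0.0094 in the kynurenic acid arrays and between 0.0053 and 0.071 in the PBS arrays, and the brighter genes are shown at the right.

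The mean of the 17 synthesis enzymes deviated by -0.0094, -0.036 and -0.085 in kynurenic acid replicates 1 to 3, against 0.054, 0.0053 and 0.071 in PBS replicates 1 to 3. For the 4 SREBP2 control genes the values were -0.011, 0.032 and 0.029 with kynurenic acid, against 0.0042, -0.018 and -0.036 with PBS. LXR genes gave 0.018, 0.020 and -0.032 with kynurenic acid, against 0.063, -0.042 and -0.027 with PBS. For the 3 sterol carriers they were 0.011, -0.0089 and -0.13 with kynurenic acid, against 0.058, 0.041 and 0.024 with PBS. The means of the 17 enzymes and of the carriers were lower in every kynurenic acid array than in any PBS array, while those of the SREBP2 control genes, the LXR genes and the brighter genes overlapped. Within the enzymes, the 10 from squalene to cholesterol were apart in the same way, and the 7 of the early mevalonate pathway overlapped, at -0.0055 in kynurenic acid replicate 1 against -0.021 in PBS replicate 2. Adipocyte markers were also lower in every kynurenic acid array, at -0.035, -0.020 and -0.0085 with kynurenic acid, against 0.031, 0.027 and 0.0048 with PBS. The 9 further genes of SREBP processing and reductase turnover were at -0.037, -0.032 and -0.041 with kynurenic acid, against 0.063, 0.044 and 0.0037 with PBS. All other groups of the further sterol genes overlapped. These were synthesis and isoprenoid branches, uptake and ester storage, sterol transfer, and oxysterols with LXR partners. The first was at 0.049 in kynurenic acid replicate 2, against -0.019 in PBS replicate 3.

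**Figure D5:**
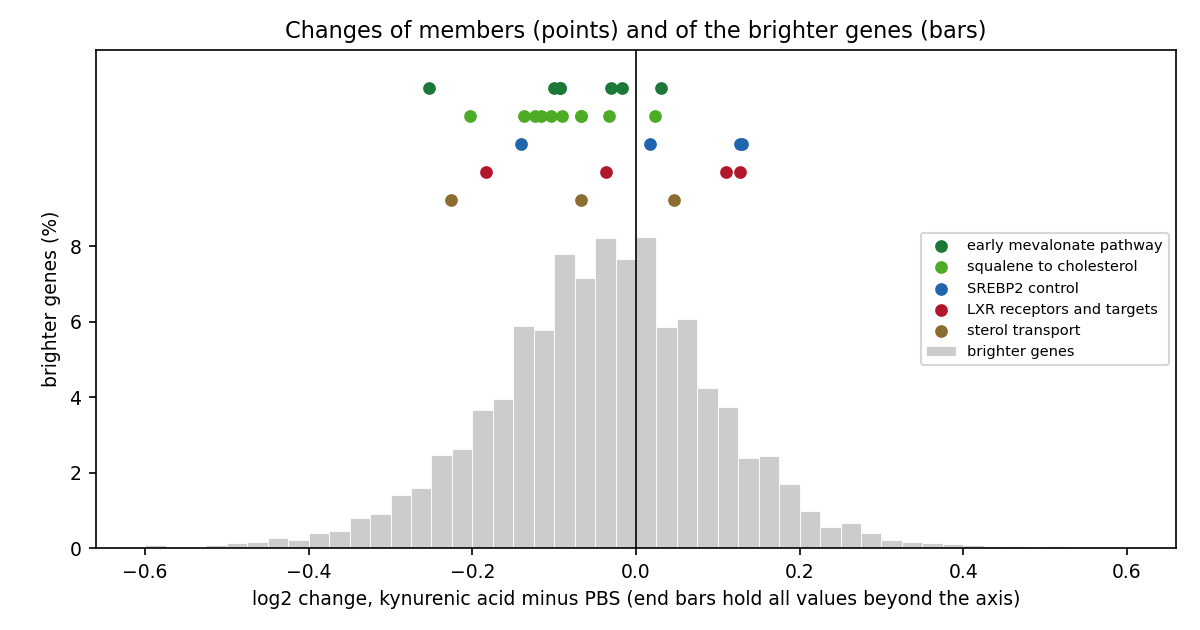
Log2 change, kynurenic acid minus PBS, of the 28 genes (points, 1 row per role) above the distribution of the 10951 brighter genes (bars, percent of genes per bin). The 28 genes lie between -0.25 and 0.13, inside the bulk of the brighter genes.

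A further list of 40 genes of sterol biology was read in the same fit. It held the processing of SREBP, uptake and ester storage, sterol transfer and oxysterol metabolism. Of these, 0 passed, 6 were lower and 1 was higher at an unadjusted p below 0.05, and the median change was -0.017. Those named here were picked by these p-values. Erlin2, an endoplasmic reticulum protein that binds cholesterol, read 6.46, 6.57 and 6.63 with kynurenic acid, against 6.95, 7.02 and 6.81 with PBS. All kynurenic acid arrays were lower, with a change of -0.37 (SE 0.088, adjusted p = 0.472), and the unadjusted p was below 0.05 in 17 of 17 alternatives. For the others named here that count was lower, at 14 of 17 for Osbpl2, 13 for Ggps1, 12 for Erlin1, 10 for Cyp7b1, 10 for Lrp1 and 12 of 15 for Gramd1c. Erlin1, the partner of Erlin2, had -0.36 (adjusted p = 0.494), or -0.23 without PBS replicate 2, and Ggps1, which makes geranylgeranyl diphosphate from the same pathway, had -0.37 (adjusted p = 0.475). The others on the lower side were Osbpl2, a sterol transfer protein, with -0.26, Gramd1c, a carrier of sterol from the plasma membrane, with -0.23, and the oxysterol hydroxylase Cyp7b1, with -0.23. Gramd1c read above background in 2 of 6 arrays, so its size is not well measured. The endocytic receptor gene Lrp1 was on the higher side with 0.19 (adjusted p = 0.509).

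Markers of the labelled cell type were present. All 9 measured of 10 adipocyte markers read above background in all 6 arrays. Their median change was -0.053, with 7 below 0, such as Adipoq and Plin1, and 2 above, Pnpla2 at 0.13 and Slc2a4 at 0.093. The mean of the 9 was lower in every kynurenic acid array than in any PBS array, as given above. Macrophages are rich in Abca1 and Abcg1, and 9 of 9 measured macrophage markers were also above background in all arrays. The mean level of these markers was 7.25, 7.06 and 7.01 log2 with kynurenic acid, against 7.32, 7.21 and 7.01 with PBS, so the ranges overlapped. PBS replicate 1 was the highest array in the macrophage mean but not in every marker. Ptprc was highest in PBS replicate 2, at 5.94, and Lyz2 in kynurenic acid replicate 1, at 10.84. The preadipocyte and fibroblast mean was 7.23, 7.19 and 7.08 with kynurenic acid, against 7.20, 7.24 and 7.24 with PBS, again lowest in kynurenic acid replicate 3. Of 10 endothelial markers 3 were above background in all arrays, and Emcn and Erg in none. The endothelial mean was higher in every kynurenic acid array than in any PBS array. Its deviations were 0.075, 0.055 and 0.028 with kynurenic acid, against -0.092, -0.058 and -0.0075 with PBS. This mean includes Cdh5, whose change was the largest of the 10. By change, 6 of the 10 were above 0, 3 below and 1 at 0, so the mean does not show a rise shared by all these markers. Cdh5, the cadherin of endothelial junctions, was above background in all arrays. It read 5.69, 5.55 and 5.54 with kynurenic acid, against 4.99, 5.09 and 5.17 with PBS, a change of 0.51 (SE 0.085, adjusted p = 0.472). In bulk RNA fewer cells of a type and less RNA per cell cannot be told apart, and the part of these cells in the sterol values was not tested.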

How the data were processed

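RNA was hybridised to 6 MoGene 2.0 ST arrays. Per the submitters' processing notes, the authors used RMA and Affymetrix Expression Console 1.41 for the deposited log2 values, which have 2 decimals. RMA gives all arrays 1 distribution, which hides a change of most transcripts in 1 direction. Per the file headers, the annotation is NetAffx build 34 on mm10. The authors' deposited table also holds linear mean intensity per group, a signed fold change (a score that is never between -1 and 1), and p- and q-values; the p-value is named there as that of a Student's t-test.

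The log2 values were used as deposited, with 1 row per symbol and no filter on dim genes: the highest-mean cluster of crosshyb type 1, or of any type for 1751 symbols without one. The contrast of kynurenic acid minus PBS was fitted with limma 3.58.1 in R 4.3.3 (lmFit, eBayes, two-sided, no covariates), with Benjamini-Hochberg adjustment over 27365 genes. The fit was tested on simulated data with independent noise for each gene and array. The simulation held no shift of whole arrays, so it does not show how the fit handles such a shift. The background was the mean of 23 antigenomic probe sets, 3.58 to 3.91 log2 by array. Array medians were 4.22 to 4.29, correlations between arrays across genes, which are not independent replicates, were 0.992 to 0.996, and the median half-width of the 95% intervals was 0.21 log2. The number of arrays limits the precision.

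The members and lists were chosen with earlier results of these data known. Values by array are given for genes with an unadjusted p below 0.05 or without overlap, and for Hmgcs1, Sqle, Srebf2, Insig1, Insig2, Abca1, Abcg1, Nr1h2 and Nr1h3 (only the cluster over its span); Hmgcs1 is given by its range. Of the further sterol genes, those with an unadjusted p below 0.05 and the 3 largest changes are named. The alternatives were other rows per gene, scalings, filters, variance models, tests and single arrays left out.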

Additional observations from a re-analysis of the deposited data

How the results depend on the processing

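None of the 17 alternatives gave a gene past the test, among all genes or among the 28. The median change of the 28 was below 0 in all 17, at -0.10 after centring the arrays on their medians, where the median of all genes moved to -0.030, with a range of -0.094 to -0.044 when 1 array was left out. The count of lower genes at an unadjusted p below 0.05 was 2 after cyclic loess, 5 with Student's t-test and 6 with an intensity trend. It was 0 to 4 when 1 array was left out. Of all genes, 4.66%, 4.06%, 6.07% and 3.31% to 6.83% were lower in these settings, in that order. The count of higher genes was 1 with Student's t-test, against 3.82% of all genes, and ranged over 0 to 1. Adding Msmo1, an alternative chosen after seeing the data, left both counts at 4 and 0.

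Of 610 values of named genes under the alternatives, 591 kept their sign, 1 was 0 (Tm7sf2 without PBS replicate 1) and 18 turned, in 8 genes whose changes were at most 0.09 in size. After median centring Mvk was at -0.0067, Tm7sf2 at -0.013 and Insig2 at -0.02. After cyclic loess Pmvk was at 0.0049, Fdps at 0.011, Cyp51 at 0.0014 and Nr1h2 at 0.0037. Without kynurenic acid replicate 1 Nr1h2 was at 0.012, and without replicate 2 Pmvk was at 0.0033 and Insig2 at -0.01. Without kynurenic acid replicate 3 Sqle was at 0.035 and Insig2 at -0.065. Without PBS replicate 1 Pmvk was at 0.012 and Insig2 at -0.013. Without PBS replicate 2 Mvk was at -0.04 and Tm7sf2 at -0.01. Without PBS replicate 3 Pmvk was at 0.032 and Fdps at 0.037. The opposite ends of these ranges with 1 array left out were 0.13 for Mvk, -0.13 for Pmvk, -0.053 for Fdps, -0.17 for Sqle, 0.08 for Tm7sf2, 0.13 for Insig2 and -0.078 for Nr1h2. The cause was not tested.

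Deviations of same-numbered arrays correlated at 0.037, 0.065 and 0.093, each array best with its own number. Those of differently numbered arrays correlated at -0.070 to 0.0038. All these correlations were weak, and whether the replicate numbers pair the arrays was not tested. With the replicate number as a block, 0 genes passed, and the median change of the 28 was -0.067. At an unadjusted p below 0.05, 3 of the 28 were lower and 0 higher, against 5.79% and 4.78% of all genes.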
